A study of Mus musculus with 4 samples.

Results

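The comparison set CTCF peaks on an inverted array of CTCF binding sites against those on the same inverted array after a deletion, in mouse embryonic stem cells (mESC). It used 2 of the 4 libraries of the study, 1 per genotype, chosen by their genotype labels. The first, called Inv here, came from cells whose HoxB label reads Del over Del(i9-13), with Ins(CBS5-10) and with Inv(CBS5-10). The second, called Inv:Del(CBS7-10), came from cells that carry in addition Del(CBS7-10). Both genotypes share everything else in the label: a HoxB deletion (Del) on one chromosome 11, and on the other the deletion Del(i9-13) between Hoxb9 and Hoxb13, the insertion Ins(CBS5-10) and its inversion. The remaining libraries, Ins with the uninverted insertion and Ins:Del(CBS8-10), serve below as a reference. They are used for where sites lie, for pileup and background beside the compared libraries, and for which summits recur. CTCF was profiled by CUT&RUN, in which an antibody brings a nuclease to the bound protein and the released fragments are sequenced. The labels do not say whether a line is 1 clone, and peaks of CTCF do not show expression, so the cell type could not be checked against its marker genes.

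CTCF is a zinc-finger protein that binds a directional DNA motif and halts cohesin as it extrudes chromatin loops. Pairs of sites whose motifs point toward each other tend to anchor loops, so the orientation of a row of sites bears on which neighbour it contacts and which it insulates. In the HoxB cluster such sites lie between Hoxb13, the most posterior gene, and Hoxb9, and the series title places the work in the insulation of Hoxb13 and the control of tail length. The question of the comparison is which CTCF peaks of the inverted array remained once CBS7-10 had been removed.

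The Inv list held 66365 peaks and the Inv:Del(CBS7-10) list 99177, of which 58205 and 88735 lay off both copies of chromosome 11. Pileup, the number of fragments over a peak's summit, and local background were recovered from the authors' fold and −log10 p. The commonest background over the genome was 0.19 fragments for Inv and 1.327 for Inv:Del(CBS7-10), a ratio of 6.98. Median pileup over all peaks was 14 and 35, and median −log10 q was 12.5 and 24.1. The sources used here do not give the number of sequenced reads. By this measure the Inv library is the thinner one, and a summit absent from its list weighs less than one absent from the other list. No test between genotypes was possible with 1 library each, so no p-value is given. Square brackets hold 95% Wilson intervals, which take in counting error alone.

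Summits within 100 bp of each other counted as the same site. Every library was mapped to a modified mm10 that holds the complete uninverted array, so each site is given at its place in the uninverted order, in the intergenic stretch of 10244 bp between Hoxb13 (chr11:96194316-96196610 in the file coordinates) and Hoxb9 (chr11:96206855-96212120). Counted from the Hoxb13 side, the uninverted array of the Ins library gives sites 1 to 6. The labels do not tie these summits to the numbers of the CBS. The Ins:Del(CBS8-10) list had array summits at sites 4, 5 and 6 alone. If sites 1 to 6 are the CBS in unbroken order, sites 1 to 3 are CBS8-10 and site 4 is CBS7.

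The inverted array carried 3 summits in the Inv library, at sites 3, 4 and 6, and 2 in the Inv:Del(CBS7-10) library, at sites 5 and 6. Sites 3 and 4 were thus absent from the list of the library with the deletion, site 6 was present in both, and site 5 was absent from the Inv list. Sites 1 and 2 were in neither list. In the Inv library pileup was 38 at site 3 (summit 96200093), 41 at site 4 (96200615) and 17 at site 6 (96201664). In the Inv:Del(CBS7-10) library it was 107 at site 5 (96201276) and 95 at site 6 (96201653). The last pair stood 377 bp apart inside 1 interval of 713 bp, whereas the 3 Inv summits, 522 and 1049 bp apart, each had an interval of its own.

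Local background over the array differed from that of the genome in both libraries. It was 3.4 fragments at each Inv summit, 17.9 times the genome background of that library. In the Inv:Del(CBS7-10) library it was 5.4 and 5.36, or 4.07 and 4.04 times. Fold over local background was 8.86, 9.55 and 4.09 at sites 3, 4 and 6 in the Inv library and 16.9 and 15.1 at sites 5 and 6 in the other. With the array unedited in orientation, the same multiple was 15.8 at site 3 in the Ins library and 5.24 at site 5 in the Ins:Del(CBS8-10) library. Both libraries in which the array is shortened had the lower multiples, but this was not confined to the array. At the peak between Hoxb9 and Hoxb8, outside the edit, the multiple was 8.84 for Inv and 4.07 for Inv:Del(CBS7-10). There it was 4.41 for Ins and 2.24 for Ins:Del(CBS8-10).

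The peak between Hoxb9 and Hoxb8 (summit 96214484 in the Ins list) gives a scale within each library. It was taken as the strongest HoxB peak after the array that every list holds. Its pileup was 68 for Inv and 195 for Inv:Del(CBS7-10). Against it, sites 3 and 4 of the Inv library stood at 55.9% and 60.3%, and site 6 at 25%. Sites 5 and 6 of the Inv:Del(CBS7-10) library stood at 54.9% and 48.7%. Site 6 was thus the weakest Inv summit of the array, while in the shortened array it was close to its neighbour. In the uninverted Ins library site 6 stood at 65.2% and site 5 at 68.9%.

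**Figure D1:**
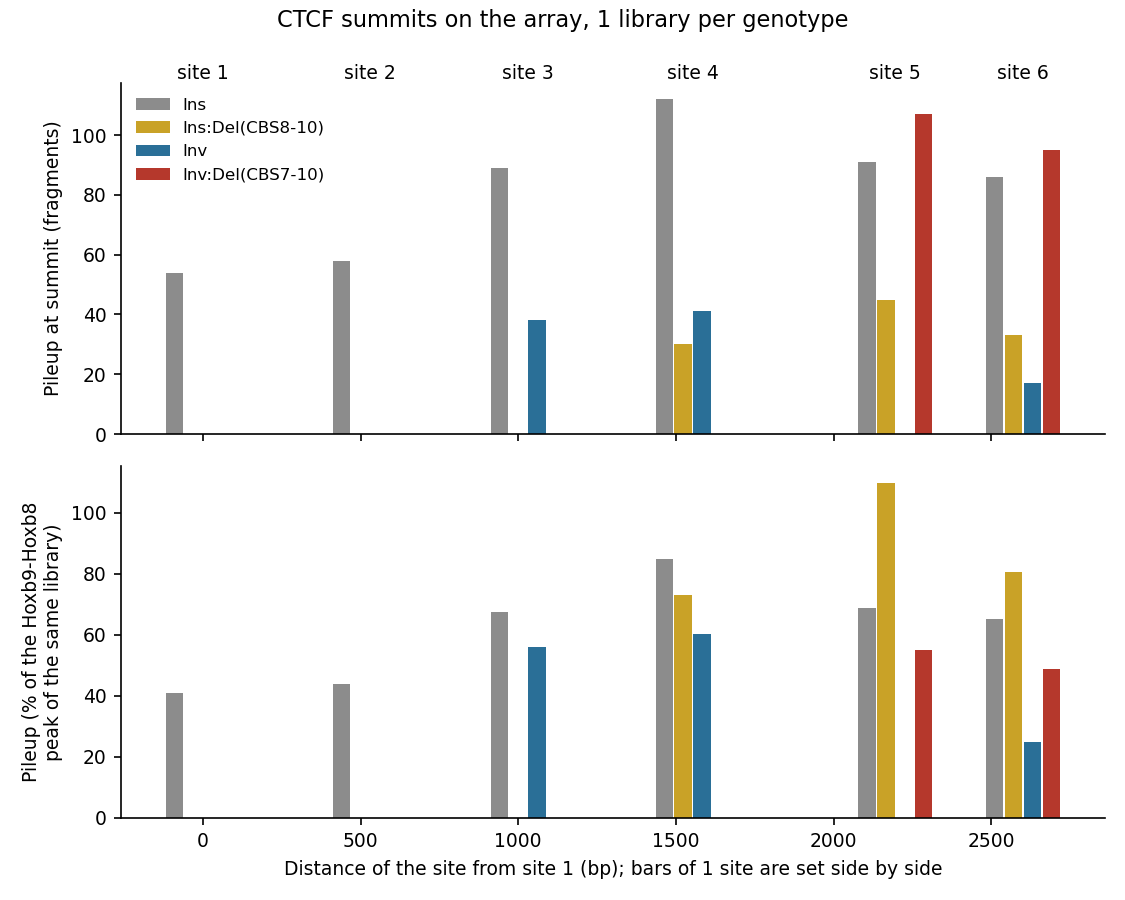
Pileup at each array summit (upper axis, fragments) and the same as a percentage of the Hoxb9-Hoxb8 peak of its own library (lower axis), by distance from site 1 in bp, with 1 bar per library and no bar where a list has no summit. The Inv bars stand at sites 3, 4 and 6 and the Inv:Del(CBS7-10) bars at sites 5 and 6, which reach 54.9% and 48.7% of the reference peak.

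The absences were then read against depth. Both shortened arrays held just the sites that the unbroken order leaves, 4, 5 and 6 after Del(CBS8-10) and 5 and 6 after Del(CBS7-10). In that order Del(CBS7-10) took out the DNA of sites 1 to 4. Their absence from the Inv:Del(CBS7-10) list was then set by the genotype. The counts for them in this and the next 2 paragraphs then bear on depth alone and not on a loss of binding. The positions of sites 3 and 4 lay inside no interval of the Inv:Del(CBS7-10) list, and the nearest interval began 1012 and 489 bp away. Site 5 lay 273 bp from the nearest Inv interval. Among peaks whose background was within 10% of that on the array, the lowest pileup called was 11 in the Inv list (1562 peaks), or 16.2% of the Hoxb9-Hoxb8 peak. In the Inv:Del(CBS7-10) list it was 14 (5647 peaks), or 7.18% of that peak. A site 3 or 4 at the relative height it had in the Inv library would stand above that limit. A site 5 at the relative height it had in the Inv:Del(CBS7-10) library would also stand above the Inv limit.

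How often peaks of the same strength went missing elsewhere was counted over like peaks. Matched on pileup and on background, each within 30%, 7 of 159 Inv peaks like site 3 on chromosome 11 outside HoxB had no Inv:Del(CBS7-10) summit (4.40%), and 6 of 158 like site 4 (3.80%). Matched on −log10 q within 20%, the shares were 1.09% and 1.00%. For site 5 in the other direction, 4 of 372 Inv:Del(CBS7-10) peaks of like pileup and background had no Inv summit (1.08%), and 1.27% of those of like −log10 q. On the other autosomes the last share was 4.35%, above that on chromosome 11.

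The absences were also ranked over all summits at least as strong. Off chromosome 11, 16724 Inv summits had a −log10 q at least that of site 3 (24.1), and 5 of them lacked both a summit and an overlapping interval in the Inv:Del(CBS7-10) list (0.0299% [0.0128 to 0.0700]). At or above site 4 (27.2) it was 2 of 14553 (0.0137%). Site 5 (94.5) lacked an Inv summit only, since its interval of 713 bp overlaps the Inv interval of site 6. At or above its −log10 q, 253 of 21343 Inv:Del(CBS7-10) summits had no Inv summit. Of these, 108 had no overlapping Inv interval either (0.506% of the 21343 [0.419 to 0.611]). On chromosome 11 outside HoxB, 1 of 1165 for site 3 (0.0858%) and 0 of 998 for site 4 lacked both. For site 5, 5 of 1067 had no Inv summit, and 1 of 1067 lacked both (0.0937%). Sites 1 and 2 give no such reading from these lists, since neither list holds them. Of Ins peaks with pileup and background like theirs, 0 of 14 and 2 of 18 were missing from the Inv:Del(CBS7-10) list, and 6 of 14 and 7 of 18 from the Inv list. In the unbroken order the absence of sites 1 and 2 from the Inv:Del(CBS7-10) list was set by the genotype. The shares for that list then bear on depth alone.

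From Ttll6 to Hoxb1, outside the array, the Inv list had 10 summits and the Inv:Del(CBS7-10) list 12. All 10 were found again and the other list added 2. Over the cluster proper, 4 summits were shared after the array: between Hoxb9 and Hoxb8, in Hoxb6 and the antisense transcript Hoxb5os, in Hoxb5os alone, and in Hoxb3. These Hox genes encode homeodomain factors of body-axis identity. The other 6 shared summits lay before the array, 5 in Ttll6, a tubulin polyglutamylase gene next to the cluster, and 1 between Ttll6 and Hoxb13.

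Pileup was higher in the Inv:Del(CBS7-10) than in the Inv library at each of the 10. The ratio of the libraries is read beside that of shared summits on chromosome 11 outside HoxB, whose median was 3.2 over 3393 summits. Positions are those of the Ins list where it has the summit. At the Hoxb9-Hoxb8 peak the ratio was 2.87, from 68 to 195. Hoxb3 (96247312) went from 18 to 50, a ratio of 2.78, and Hoxb5os (96238800) from 18 to 39, a ratio of 2.17. The Hoxb6 summit (96230183) went from 12 to 71, a ratio of 5.92. Of 523 shared chromosome 11 peaks like it in −log10 q, 14.3% had a ratio at least as high.

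In Ttll6 the summits at 96133700, 96145801 and 96157361 had ratios of 3.15, 3.04 and 3.5. The one at 96127135 went from 38 to 189, a ratio of 4.97, and the one at 96124831 from 14 to 29, a ratio of 2.07. The summit between Ttll6 and Hoxb13 (96190480) also went from 14 to 29. The copy of chromosome 11 with the HoxB deletion carries Ttll6 as well, so fragments of these 6 sites fall on either copy. Site 6 of the array went from 17 to 95, a ratio of 5.59, second to Hoxb6 among the 11 shared summits of the locus. Of 365 like peaks on chromosome 11, 71 (19.5%) had a ratio at least as high, and their 5th to 95th percentile ran from 1.58 to 8.4.

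**Figure D2:**
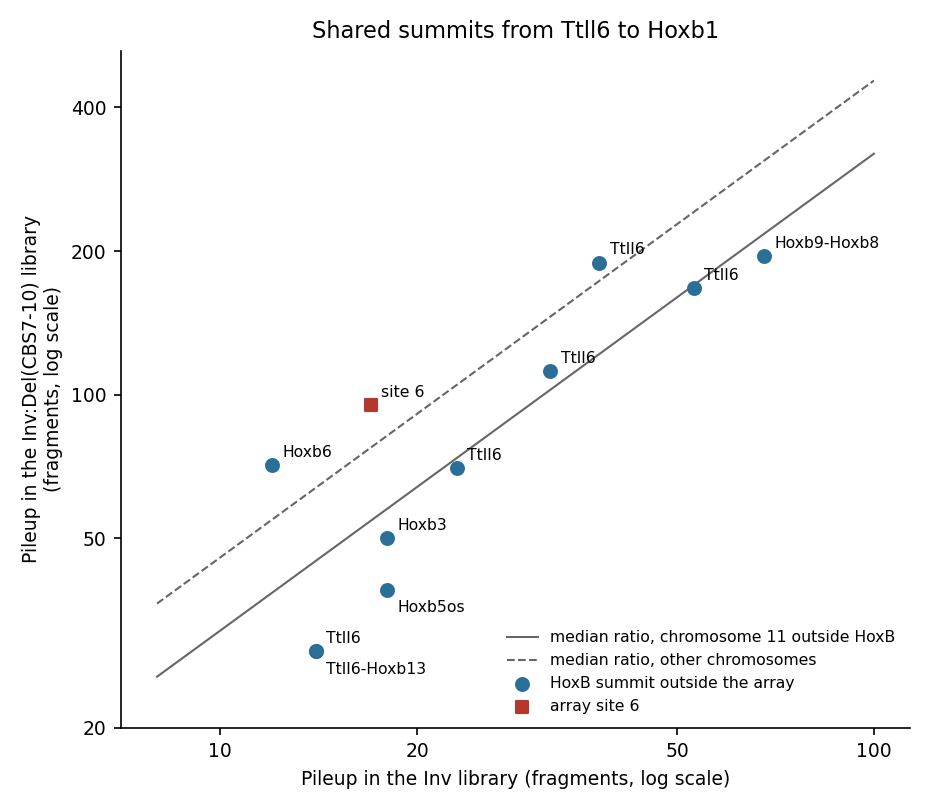
Pileup of the 11 summits shared from Ttll6 to Hoxb1, in the Inv library (horizontal, fragments, log scale) against the Inv:Del(CBS7-10) library (vertical, log scale), with lines at the median ratio of shared summits on chromosome 11 outside HoxB (3.2) and on the other chromosomes (4.56). Array site 6 and Hoxb6 lie above both lines and the Hoxb3 and Hoxb5os summits below both.

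Of the 2 summits that only the Inv:Del(CBS7-10) list had, the one within Ttll6 at 96160633 had a pileup of 31 and a −log10 q of 14.2. Of 476 like peaks, 240 (50.4%) were missing from the Inv list too. The one in Hoxb5 and Hoxb5os (96239231) had a pileup of 8 and a −log10 q of 1.94, and 43 of 51 like peaks (84.3%) were missing. Absence from the Inv list was thus common among peaks of that strength. Of peaks like array site 5 in −log10 q, 1.27% on chromosome 11 and 4.35% on the other autosomes were absent from it. Matched on fold on chromosome 11, it was 7.05%.

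Off chromosome 11, 8280 of 58205 Inv summits had no Inv:Del(CBS7-10) summit within 100 bp (14.2%), and are called lost. In the other direction, 38809 of 88735 Inv:Del(CBS7-10) summits had no Inv summit (43.7%), and are called gained. These words describe lists and not cells. With no overlapping interval allowed either, 5385 were lost (9.25%) and 33429 gained (37.7%). Summits present in both had a median pileup ratio of 4.56, higher than on chromosome 11. Chromosome 11 outside HoxB lost 16.7% and gained 35.1%.

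Both shares fell as peak strength rose, apart from the strongest Inv bin, in which 3 of 75 summits were lost. With a −log10 q under 5, 43.8% of Inv summits were lost, and 22.3% from 5 to 10, but 0.643% from 20 to 40 and 0.199% from 40 to 80. Gained summits made up 89.7% of the weakest Inv:Del(CBS7-10) summits, 39.7% from 20 to 40, 14.6% from 40 to 80 and 0.524% over 160. All 18 lost summits with a −log10 q of at least 40 lay in an interval that overlapped one of the other list. Where the lists were made equal in length by keeping the 66365 strongest Inv:Del(CBS7-10) peaks, a step added after the data were seen, 13117 were lost (22.5%) and 14137 gained (23.9%).

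**Figure D3:**
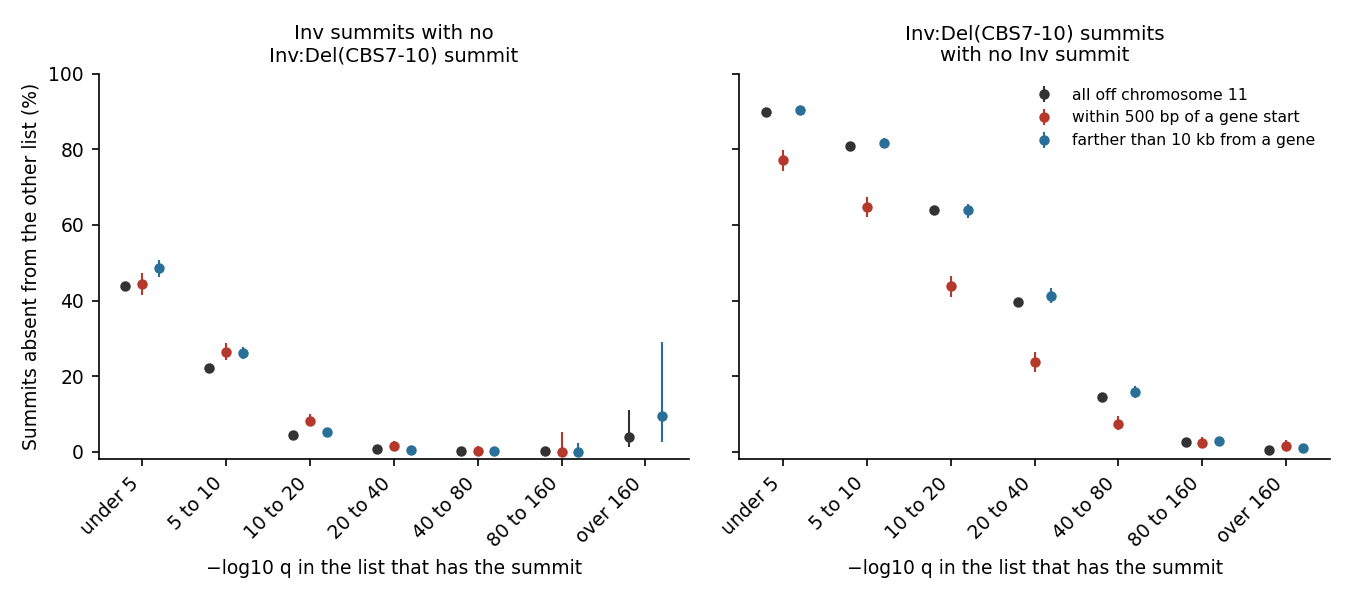
Share of summits absent from the other list (vertical, %) by bins of −log10 q in the list that has them, for all summits off chromosome 11, those within 500 bp of a gene start and those farther than 10 kb from a gene, with 95% Wilson intervals and only bins of at least 20 summits. The share of gained summits falls from 89.7% to 0.524% over the bins, and gained promoter summits lie below the rest up to the bin of 40 to 80, while lost promoter summits lie above all lost ones from 5 to 40 (26.5% against 22.3% at 5 to 10).

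Gene starts were the position class farthest from the share of summits of like strength. Promoter summits, those within 500 bp of an annotated start, were lost in 960 of 4765 cases (20.1% [19.03 to 21.31]), where all summits of the same −log10 q mix gave 17.7%. They were gained in 2395 of 6200 cases (38.6% [37.4 to 39.8]), where that mix gave 51.5%. The pileup ratio of shared promoter summits was 3.25, below the 4.56 of all summits, and all 3 measures come from the same pair of libraries. Whether depth or another property of either library plays a part was not tested. Promoter summits were 8.19% of the Inv list and 6.99% of the other. Summits farther than 10 kb from a gene were lost in 16.8% against 14.8% for the mix, and those within genes in 13.0% against 14.0%. Gene starts of chromosome 18 were not used here.

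Among gene families, most shares lay near those of summits of like strength. Antigen receptor loci, whose many CTCF sites take part in V(D)J recombination, lost 19 of 263 summits (7.22% [4.673 to 11.01]), where the mix gave 11.7%. They gained 33.5% against 33.8%. Odorant and vomeronasal receptor genes lost 18.7% against 15.1%, and zinc finger genes 17.6% against 16.7%. The clustered protocadherins, in which CTCF pairs promoters with distal enhancers, lost 8 of 93 and gained 24 of 109, where the mix gave 8.32% and 24.1%. Near Hox genes off chromosome 11, 4 of 24 were lost (16.7%, against 11.1% for the mix) and 7 of 27 gained (25.9% against 29.6%). The strongest gained one lay near Hoxc13, with a pileup of 33.

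Lists of genes for this tissue and for other lineages were described likewise. Near pluripotency genes 11 of 73 summits were lost (15.1%, against 18.7% for the mix) and 54 of 116 gained (46.6% against 50.4%). Near genes of the tail bud and axis elongation 9 of 47 were lost (19.1% against 14.3%) and 42 of 80 gained (52.5% against 49.2%). Near the genes of CTCF and cohesin 7 of 49 were lost (14.3% against 15.9%) and 48 of 90 gained (53.3% against 50.0%). Of summits near imprinted genes 5 of 51 were lost (9.80% against 15.3%) and 32 of 78 gained (41.0% against 38.5%). Near germ layer genes 2 of 19 were lost and 14 of 31 gained, where the mix gave 11.6% and 46.5%. Near neural genes 2 of 20 were lost and 11 of 30 gained, where it gave 13.2% and 36.4%. Near fibroblast genes 0 of 14 were lost and 10 of 24 gained, where it gave 7.57% and 34.0%. Each of these shares had an interval that held the value of the mix.

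**Figure D4:**
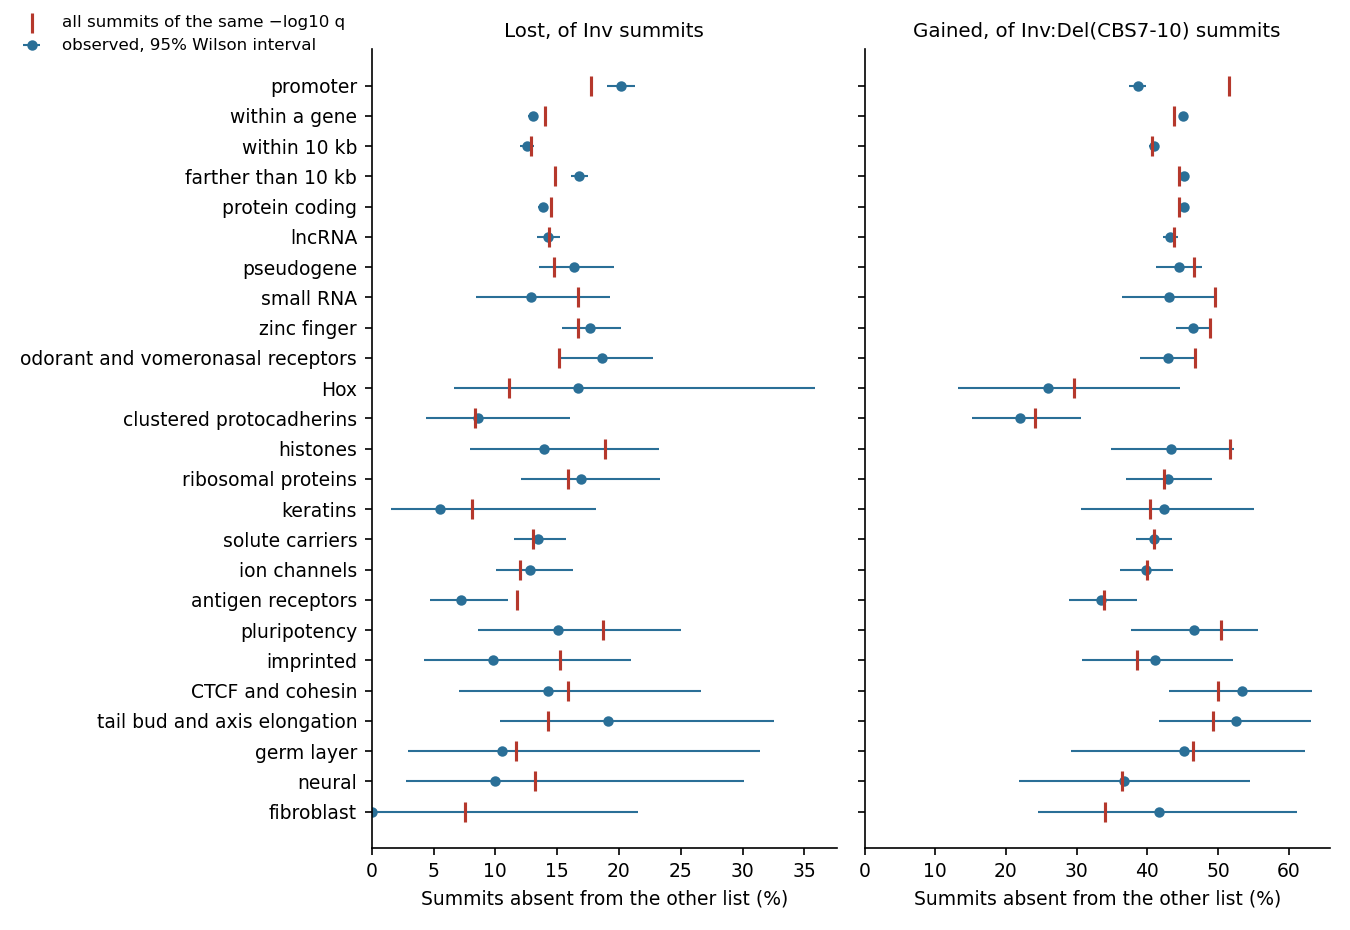
Share of summits lost (left, % of Inv summits) and gained (right, % of Inv:Del(CBS7-10) summits) in each position class, biotype and gene list off chromosome 11, as points with 95% Wilson intervals, and as ticks the share among all summits with the same −log10 q mix. The promoter class lies off its tick in both panels (20.1% against 17.7%, and 38.6% against 51.5%). Summits within a gene and those in protein-coding genes do so too, by a smaller margin. Summits farther than 10 kb, antigen receptors and, narrowly, odorant and vomeronasal receptors lie off it only in the left one.

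Among members of these lists, each list's strongest lost and gained summit was looked up in all libraries. At Lin28b, an RNA-binding regulator of developmental timing and axis length, a summit at chr10:45382043 had a pileup of 79 in the Inv:Del(CBS7-10) library, 41 in the Ins and 18 in the Ins:Del(CBS8-10) library. The Inv list had none within 2000 bp. In Sall4, a zinc-finger factor of pluripotent cells, the strongest lost summit (168762124, pileup 12) and the strongest gained one (168762790, pileup 90) lay 0.666 kb apart on chromosome 2. At Nes, an intermediate filament gene of neural progenitors, a summit 63 bp from the start was lost, with a pileup of 16 in the Inv and 59 in the Ins library. The nearest Inv:Del(CBS7-10) summit stood 0.757 kb away. Near Dll3, a Notch ligand of somite formation, the lost summit at the start of Selenov had a pileup of 9 in the Inv and 30 in the Ins library, and another Inv:Del(CBS7-10) summit stood 0.533 kb away.

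Among the strongest lost summits with no overlapping interval, those near Crebzf and at Dpf1 had pileups near those of array sites 3 and 4. The rest of the top 10 had lower ones. Of the 10, the strongest lay near Crebzf, a bZIP cofactor gene, at chr7:90441728, with a pileup of 38 and a −log10 q of 35.0. A second stood at chr7:90442016, with a pileup of 36 and a −log10 q of 32.3. Within 2000 bp no other list had a summit. Next came single summits in Agbl1 (pileup 20) and by the pseudogene Gm15362 (20), and one at the start of Dpf1, a chromatin-remodelling subunit gene (45, over a background of 4.88). The other 5 of the top 10, by Gm32773, Gm15569, 4930519F16Rik, Gm7378 and Sntg1, had pileups from 16 to 27.

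At gene starts the highest lost summits after Dpf1 were at Rbx1, a ubiquitin ligase subunit, with a pileup of 23 in the Inv and 24 in the Ins library, and at Gm33574, with 14 in the Inv, 11 in the Ins and 5 in the Ins:Del(CBS8-10) library. The one at Rab1b, a GTPase of vesicle traffic, had 21 in the Inv, 32 in the Ins and 21 in the Ins:Del(CBS8-10) library. The one at Adk, the adenosine kinase gene, a summit that also lies within Ap3m1, had 32, 52 and 29. The summits at Gm33574, Rab1b and Adk are thus held by 3 of the 4 lists. A further Inv:Del(CBS7-10) summit stood 1.33 kb from the one at Rab1b and 1.60 kb from the one at Adk. Of the 5 strongest lost summits that lie in both remaining lists, Gm33574 and Rab1b are given above, and Gm39127, Klf16 and Saysd1 had Inv pileups of 18, 26 and 26.

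The gained side was led by a repeat-rich stretch. Of the 10 highest gained summits, 9 lay at the start of the chromosome 9 assembly (chr9:3002132-3038121), where assembled mouse chromosomes border satellite repeats. This stretch held 22 gained summits, over backgrounds of 256 to 1128 fragments and with folds of 1.24 to 3.13. The Inv list had 16 summits there at other positions, and 21 of the 22 recurred in the Ins list and 21 in the Ins:Del(CBS8-10) list. The tenth was a different kind of peak, in Cdk5rap2, a centrosome gene (chr4:70378168), with a fold of 34.3. Its pileup was 185 in the Inv:Del(CBS7-10), 126 in the Ins and 118 in the Ins:Del(CBS8-10) library, and the Inv list had no summit within 2000 bp.

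Other strong peaks of 3 libraries were also absent from the Inv list alone. With the background held under 20 fragments, a choice made after the values were seen, Txndc16 had pileups of 150, 71 and 30 in the Inv:Del(CBS7-10), Ins and Ins:Del(CBS8-10) libraries. In the same order Slc41a3 had 157, 97 and 63, Gm36330 had 174, 51 and 24, and Pfkfb4 had 216, 72 and 31. In each of them the Inv:Del(CBS7-10) library was the highest and the Ins:Del(CBS8-10) library the lowest. The genome backgrounds had the same order, 1.327, 0.858 and 0.553 fragments. These summits were also picked by their −log10 q in the Inv:Del(CBS7-10) list. Over all gained summits without an overlapping interval, 27.0% were in both remaining lists and 47.0% in neither. Over lost ones, 6.70% were in both and 75.3% in neither. The same shares over all summits of each list were not computed. Lost and gained summits also differ in strength and in the depth of their library, so these shares do not compare them.

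Summits of the Inv:Del(CBS7-10) library alone, also picked after the values were seen, were led by Gm34548 with a pileup of 245. Gm4265 (76), Frmd4a (67), Golga5 (86) and Abca4 (62) followed. Of these, only the Abca4 summit had any summit of another library within 2000 bp, one of 6 fragments in the Ins library.

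**Figure D5:**
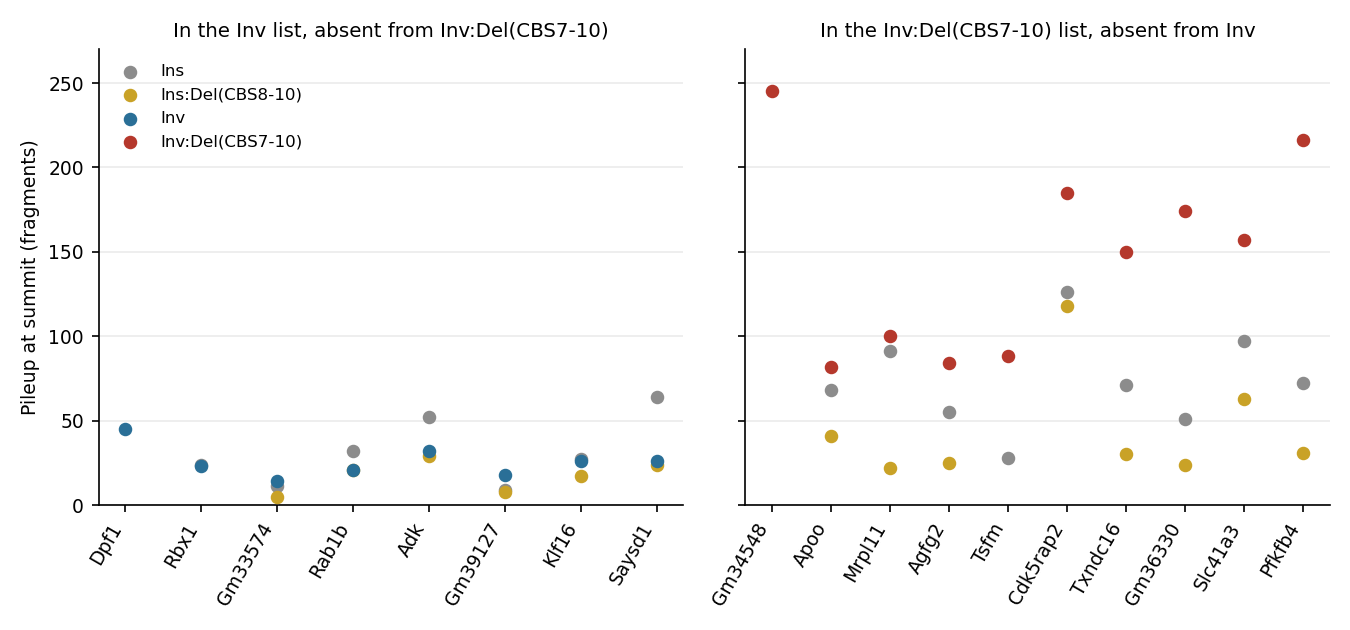
Pileup (fragments) of the 5 strongest summits at gene starts and the 5 strongest shared by 3 libraries (gained ones among these with a background under 20 fragments, which leaves out the chromosome 9 stretch), for those in the Inv list and absent from the Inv:Del(CBS7-10) list (left) and the reverse (right), with 1 point per library that has the summit and coinciding points overlaid. The lost summits lie at or below 64 fragments in every library, while the 10 gained ones plotted reach 82 to 245 in the Inv:Del(CBS7-10) library. Pileups are not scaled for depth, and the genome background was 0.19 fragments for Inv and 1.327 for Inv:Del(CBS7-10), so the panels do not compare strength.

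Sequences around gene starts were searched for part of the CTCF motif. AGGNGGCGC, the end of the CTCF motif core, was searched on both strands (reverse form GCGCCNCCT) in RefSeq windows of 300 bp on GRCm38.p6. It was found in 3.25% of 30528 windows off chromosome 11, in 9.75% of 3242 with a shared Inv summit, in 4.68% of 705 with a lost one and in 4.01% of 1694 with a gained one. Where the Inv summit had a −log10 q of at least 40, it was 24.3%. Among weak shared summits, with a −log10 q under 10, it was 6.63% [5.46 to 8.03] and among weak lost ones 4.84% [3.41 to 6.82], and these intervals overlap. Below are 100 bases before the start of 2 lost, 2 gained and 2 shared promoters, 5′ to 3′ on the gene's strand. They come from the 6 strongest summits of each kind that lie in a RefSeq window and, where it holds no match, before the gene start, which leaves out Rbx1, Gm33574 and Mrpl11, and were picked after they were seen, to set strong shared sites with a match beside lost and gained ones. Capitals mark the match, or for Gm34548 the repeated CCAATCAG.
Dpf1 (lost, chr7:29303776-29303875, plus strand): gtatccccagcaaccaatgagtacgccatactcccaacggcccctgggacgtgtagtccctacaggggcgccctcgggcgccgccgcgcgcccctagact
Rab1b (lost, chr19:5107002-5107101, minus strand): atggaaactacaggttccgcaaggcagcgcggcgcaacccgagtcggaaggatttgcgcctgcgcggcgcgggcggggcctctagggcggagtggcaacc
Apoo (gained, chrX:94366897-94366996, plus strand): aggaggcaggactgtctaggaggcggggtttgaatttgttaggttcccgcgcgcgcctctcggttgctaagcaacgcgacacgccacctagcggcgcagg
Gm34548 (gained, chr3:104680779-104680878, minus strand): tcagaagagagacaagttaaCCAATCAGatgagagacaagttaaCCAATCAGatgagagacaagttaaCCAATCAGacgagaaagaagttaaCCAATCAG
Radil (shared, chr5:142551221-142551320, minus strand): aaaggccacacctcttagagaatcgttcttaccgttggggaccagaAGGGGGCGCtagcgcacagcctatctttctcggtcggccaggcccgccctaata
Snrpe (shared, chr1:133610388-133610487, minus strand): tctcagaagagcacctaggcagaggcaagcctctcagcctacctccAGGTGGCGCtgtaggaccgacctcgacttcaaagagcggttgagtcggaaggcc

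The stretches of Dpf1, Rab1b and Apoo hold no match to these letters, which says nothing about the factor. Of the 6 lost starts that passed this filter, 1 (Ccdc186) held a match, of the 6 gained 0, and of the 6 shared 3. The search takes these letters only, so a start without a match is not shown to lack a CTCF site. At the shared starts of Radil and Snrpe, the latter a gene of a spliceosomal protein, the match lay 51 and 39 bp from the Inv summit, with pileups of 147 and 127. The gained summit at Apoo, which encodes a mitochondrial inner-membrane protein, had a pileup of 82 in the Inv:Del(CBS7-10), 68 in the Ins and 41 in the Ins:Del(CBS8-10) library. The other named gained starts were Mrpl11, a mitochondrial ribosomal protein gene, with 100, 91 and 22 in that order, and Agfg2 with 84, 55 and 25. Tsfm, the gene of a mitochondrial translation factor, had 88 in the Inv:Del(CBS7-10) and 28 in the Ins library. The Gm34548 stretch is a tandem repeat with 4 copies of CCAATCAG. Of the 30528 windows, 4 had 4 or more copies on both strands together, and the highest number was 5.

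By chromosome, the lost share ran from 12.7% to 16.0% over the autosomes other than chromosome 11, and was 20.0% on X and 42.0% (34 of 81) on Y. The gained share was 46.0% on X and 30.9% (21 of 68) on Y. The pileup ratio of shared summits was 4.50 on X, 2.77 on Y (47 summits) and 3.20 on chromosome 11. Chromosome 11 and Y thus had the lowest ratios.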

How the data were processed

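CTCF CUT&RUN peaks of 4 mESC lines, 1 library per genotype, were taken from the deposited lists, and 2 were compared. The tools were MACS2 2.2.7.1, Bowtie2 2.4.5, cutadapt 4.1, bedtools 2.30.0 and Picard, and the build mm10, per the submitters' processing notes. The sources used here give no settings, read filters or control library. Lists were deposited per library and nothing was pooled. The deposited files use a modified mm10 with 2 copies of chromosome 11. The deposited score is the −log10 q times 10 as a whole number. Fold over local background, −log10 p-value and −log10 q-value are those deposited by the authors, from their peak caller.

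The rest was computed with pandas 2.3.3, SciPy 1.17.1 and NumPy 2.4.6 under Python 3.11.15, and drawn with Matplotlib 3.10.9. A summit is the interval start plus its deposited offset, printed counted from 1. Pileup and background were recovered as the whole-number pair that gives the deposited fold and −log10 p (tolerance 0.001), tested on simulated peaks made with the same formula. Genes came from the GRCm38.p6 RefSeq tables. HoxB gene places after the array rest on an offset of 64.475 kb, found by sliding summits along gene starts in steps of 25 bp. The mix for a class weights the share of all summits in each bin of −log10 q by the class's own bins. Like peaks lay on chromosome 11 outside HoxB.

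Named were every summit in the array and from Ttll6 to Hoxb1, the 10 strongest lost and gained summits with no overlapping interval, the 5 strongest at gene starts and in both remaining lists, and the strongest of each gene list. Not every item that this rule names is reported here. The comparison, members and lists were chosen with earlier results of these data known. Alternatives changed the peaks used (a −log10 q minimum of 10, or the top 20000 of each list), the matching of summits and the distance to a start.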

Additional observations from a re-analysis of the deposited data

Results flagged for a closer look

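The copy of chromosome 11 that carries the HoxB deletion enters none of the comparisons, and it held 4076 Inv and 5196 Inv:Del(CBS7-10) summits. It was picked out because signal lay in data that the report does not otherwise use. Of its Inv summits 16.9% were lost and of its Inv:Del(CBS7-10) summits 34.8% gained, against 16.7% and 35.1% on the copy with the array. All 5 shared Ttll6 summits were on the deletion copy in both libraries. At 96127135 the pileup there was 49 for Inv and 216 for Inv:Del(CBS7-10), and at 96124831 it was 11 and 33. The summit at 96160633, absent from the Inv list on the array copy, was absent from it on the deletion copy as well and had a pileup of 45 in the Inv:Del(CBS7-10) library. Fragments from outside the edited stretch can be placed on either copy. Likeness between the copies is therefore no second observation.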

How the results depend on the processing

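Of 95 values under other settings, 65 kept within 1.5 times the main count, or within the main interval for a share, and 30 moved. Array summits kept their sites under matching within 50 or 250 bp and any overlap, but site 6 had no match by a reciprocal overlap of 50% (0 of 3 found) or at a −log10 q of at least 10 (0 of 2). Among the 20000 strongest peaks of each list the array had 2 Inv summits and 0 Inv:Del(CBS7-10) summits, with 0 found in both. There the rest of the HoxB stretch had 4 and 3, with 3 found in both.

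Lost and gained counts off chromosome 11 moved more. Lost summits numbered 1160 at a −log10 q of at least 10 in both lists, 3185 among the 20000 strongest and 697 for Inv summits of at least 10 against the full second list. They numbered 5385 by any overlap, 16540 by reciprocal overlap and 13117 with lists of equal length. Gained summits numbered 4019 among the 20000 strongest, 15871 at a −log10 q of at least 10 against the full list and 14137 with equal lengths. Promoter summits lost were 203, 325, 107 and 635 under at least 10 in both lists, the 20000 strongest, at least 10 against the full list and any overlap, and 1724 with equal lengths. Promoter summits gained were 90, 877 and 773 under the 20000 strongest, at least 10 against the full list and equal lengths. With equal lengths 36.2% of promoter summits were lost and 20.3% gained, against 22.5% and 23.9% of all summits. At a −log10 q of at least 10 in both lists 48.9% of promoter summits were gained against 47.5% of all, so the lower gained share of promoters turned there. Equal lengths and a background under 20 fragments were chosen after seeing the data.

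Like peaks with no summit made up 4.40% for site 3 and 3.80% for site 4 when matched on pileup and background. Matched on fold they made up 8.20% for site 3, 6.17% for site 4 and 7.05% for site 5, and on the other autosomes 4.35% for site 5. No paired analysis was possible because each genotype has 1 library and no test was made. For the same reason no replicate could be left out. The depth of the Inv library limits every statement on a summit absent from its list.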
